A study of Mus musculus with 8 samples.

Results

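The 34 genes described here run the cell division cycle: cyclins and their kinase, the machinery that copies DNA, and the proteins that build the spindle and part the chromosomes. They were given as a list of names with no cut on measured values, but the list was chosen with earlier results of these data known. Of the 34 listed genes, 33 had at least 1 probe set that the platform annotation assigned to that gene alone, out of 18193 genes with such a probe set. Where a gene had several, the brightest on average (mean log2 over all arrays) was used. No probe set was named for the mitotic cyclin Ccnb1, which is not analysed here. Of the members, 13 act mainly in G1 and S phase (here S phase members). The other 20 act mainly in G2 and mitosis (here mitosis members). This split is not strict, as Ccna2 and Mki67 among the mitosis members are also present earlier in the cycle.

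The arrays hold RNA of mouse corneas, 4 of animals labelled as overexpressing TGF-beta (TGFB 1 to TGFB 4) and 4 of their wildtype littermates (wildtype 1 to wildtype 4). The genetic strain, the TGF-beta isoform, the promoter or cell type that drives it, the age and any treatment are not given in the labels. Whether the 8 arrays come from 8 animals is also not given, and the p-values therefore reflect the spread among these 8 arrays alone, which may be technical. Values are deposited probe set signals, or log2(signal + 16) where a log2 scale is named, and differences are TGFB minus wildtype on that log2 scale, which understates the change of dim genes.

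A cell commits to division in G1, when D and E type cyclins release the E2F factors that switch on replication genes. Cyclin A and cyclin B with the kinase Cdk1 then carry it through G2 and mitosis, whose genes are switched on later. In the cornea, dividing cells are found mostly in the basal layer of the epithelium and the limbus at its edge, while stromal keratocytes rest until they are wounded. TGF-beta is known to arrest many epithelial cells in G1 and to stimulate the division of some fibroblasts.

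Promoters of the members carry short motifs known from cell cycle genes, and a few are printed to show the motifs whose frequency differed between the 2 sets of members. RefSeq promoters of build GRCm38.p6 (250 bases before to 50 after the gene start, the first window listed per gene) were at hand for 26 of the 33 members, 10 S phase and 16 mitosis members. They were searched on both strands for the CCAAT box (CCAAT), for the cell cycle genes homology region, or CHR (TTTGAA), and for the E2F site (TTTCCCGC, TTTCGCGC, TTTGCCGC or TTTGGCGC). In the members 1 pair of matches to different motifs shared a base, an E2F match and a CCAAT box of Mcm7, and 2 pairs of E2F matches on opposite strands overlapped, in Mcm5 and Mcm6. The sequences below are the 250 bases before the gene start, 5′ to 3′ on the strand of the gene, with matches on either strand in capitals. Cdk1 and Kif11, on opposite sides of 0 in the comparison of the groups, and Cdc20 stand for the mitosis members, and Mcm5 and Mcm6 for the S phase members. They lie at chr10:69352913-69353162 (Cdk1, minus strand), chr19:37376132-37376381 (Kif11, plus strand), chr4:118437344-118437593 (Cdc20, minus strand), chr8:75109259-75109508 (Mcm5, plus strand) and chr1:128359706-128359955 (Mcm6, minus strand).
Cdk1: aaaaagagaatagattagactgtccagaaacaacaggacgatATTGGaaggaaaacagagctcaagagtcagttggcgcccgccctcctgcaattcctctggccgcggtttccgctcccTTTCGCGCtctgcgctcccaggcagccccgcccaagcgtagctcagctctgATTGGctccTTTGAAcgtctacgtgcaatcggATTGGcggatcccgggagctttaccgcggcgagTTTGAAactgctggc
Kif11: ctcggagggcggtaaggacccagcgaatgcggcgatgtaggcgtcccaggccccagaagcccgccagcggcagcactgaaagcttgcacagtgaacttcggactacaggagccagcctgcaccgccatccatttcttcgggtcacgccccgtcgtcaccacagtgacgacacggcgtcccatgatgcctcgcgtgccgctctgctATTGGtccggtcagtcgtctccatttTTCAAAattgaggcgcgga
Cdc20: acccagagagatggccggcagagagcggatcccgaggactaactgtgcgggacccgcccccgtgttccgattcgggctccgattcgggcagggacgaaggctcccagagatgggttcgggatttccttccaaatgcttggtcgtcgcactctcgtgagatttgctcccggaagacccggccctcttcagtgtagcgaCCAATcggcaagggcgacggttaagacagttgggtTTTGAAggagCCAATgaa
Mcm5: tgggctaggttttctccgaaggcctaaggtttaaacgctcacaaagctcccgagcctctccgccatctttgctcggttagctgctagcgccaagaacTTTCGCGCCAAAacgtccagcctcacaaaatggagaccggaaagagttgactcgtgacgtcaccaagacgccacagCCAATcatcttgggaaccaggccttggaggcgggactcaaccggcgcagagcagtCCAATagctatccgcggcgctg
Mcm6: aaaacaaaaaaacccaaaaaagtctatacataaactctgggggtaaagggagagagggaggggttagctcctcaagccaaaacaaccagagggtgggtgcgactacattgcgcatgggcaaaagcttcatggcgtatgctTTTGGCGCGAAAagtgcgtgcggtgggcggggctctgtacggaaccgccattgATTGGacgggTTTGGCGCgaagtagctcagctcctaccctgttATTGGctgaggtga

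The CHR was held by 12 of 16 mitosis members and by 1 of 10 S phase members, Mcm2, against 18.1% of 27025 promoters of the same length. In 11 of the 12 mitosis members a CHR began at or after base -75, close to the gene start. The E2F letters stood in 4 of 10 S phase members (Mcm3, Mcm5, Mcm6 and Mcm7) and 1 of 16 mitosis members (Cdk1), against 2.32% of all promoters. CCAAT boxes were common in both, in 8 of 10 S phase and 14 of 16 mitosis members, against 37.9%. A CCAAT box together with a CHR stood in 12 of 16 mitosis members and in 7.12% of all promoters. Other genes of the same processes were taken from lists that share no gene with the members. Among 38 further mitosis genes with a promoter, 23 held a CHR, 3 an E2F match, 24 a CCAAT box and 17 (44.7%, against 75.0% of the mitosis members) a CCAAT box with a CHR. Among 30 further replication genes, 4 held a CHR, 11 an E2F match, 16 a CCAAT box and 3 a CCAAT box with a CHR. A match is a description of these letters and shows neither a bound site nor a cause.

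**Figure D1:**
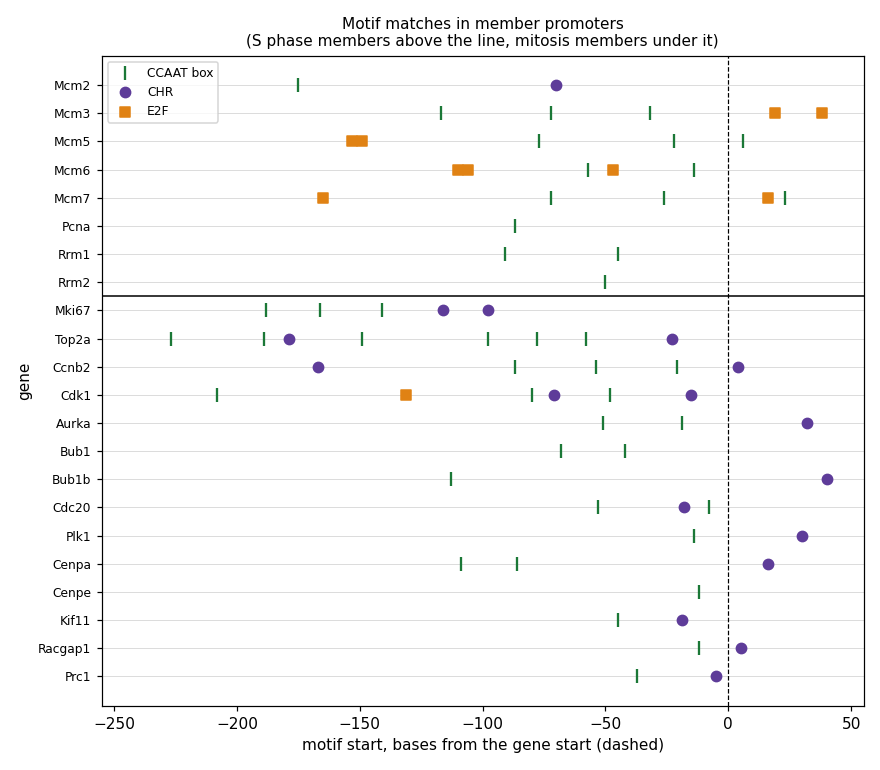
Matches to the CCAAT box, the CHR and the E2F site in the promoters of the 22 members with any match; the x axis gives the first base of each match in bases from the gene start. CHR matches lie in 12 mitosis members, mostly close to the gene start, and in the S phase member Mcm2. E2F matches lie in 4 S phase members and in Cdk1.

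The comparison of the groups asks whether corneas of mice that overexpress TGF-beta carry more or less RNA of dividing cells. No member could be called higher or lower. In limma over all genes 0 of the 33 members passed an adjusted p under 0.05, as did 0.0% of the 18193 genes, and at an unadjusted p under 0.05 the members also numbered 0, where 2.65% of all genes were higher and 4.42% lower in TGFB. The groups overlapped for all 33 members, while 3.94% of all genes had groups that did not overlap. In these bulk samples, fewer dividing cells and less RNA per dividing cell cannot be told apart.

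The S phase members lay on both sides of 0, with 8 of 13 above it and a median difference of 0.03. The mitosis members lay mostly below, 18 of 20, with a median of -0.11. Over all genes 47.4% lay above 0 and 52.6% below it, and the median was -0.014. For 27 of the 33 members the difference was smaller than its own standard error (SE). Members share the same 8 arrays, so these counts are not independent signs. Leaving out a single array could turn the sign of either median. Over 18 alternative settings, which share these arrays, the mitosis median was below 0 in 17 and the S phase median in 6. Without wildtype 2 the mitosis median was 0.022, with 10 of 20 members below 0. Without TGFB 4 it kept its sign but was -0.016, with 11 below. The S phase median was -0.18 without TGFB 2, -0.15 without wildtype 4 and -0.038 without wildtype 1.

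**Figure D2:**
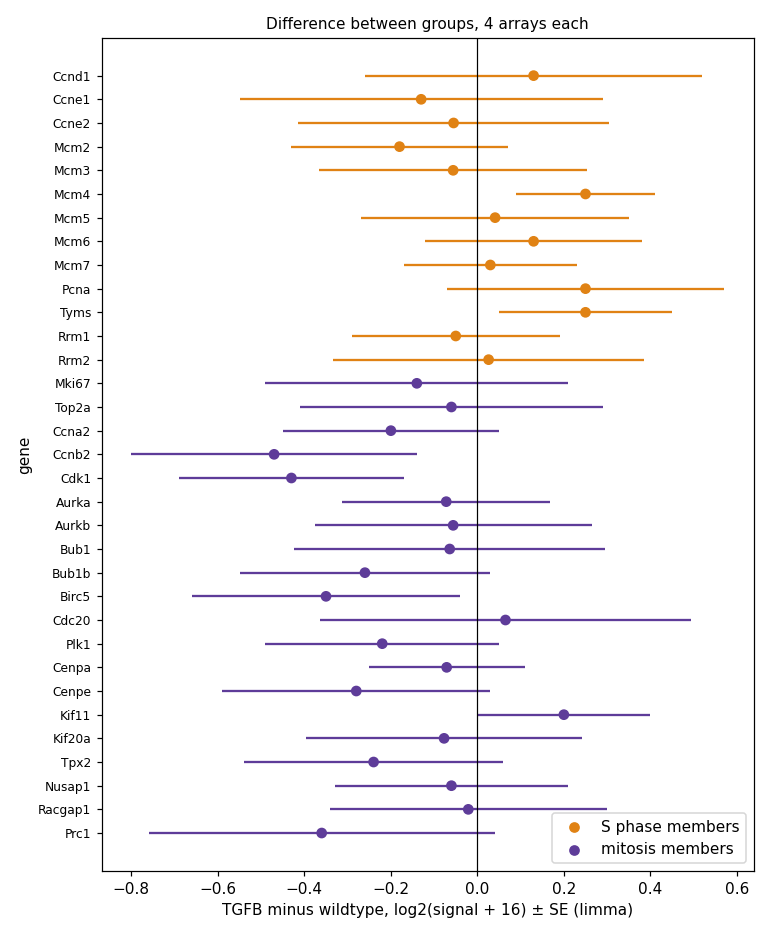
Difference between TGFB and wildtype for each of the 33 members on the log2(signal + 16) scale, as a point with a line of 1 limma SE to each side, 4 arrays per group. S phase members scatter around 0 between -0.18 and 0.25, and 18 of 20 mitosis members lie below 0, down to -0.47, within overlapping errors.

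What set the arrays apart was shared by nearly all members and cut across the groups. The highest array was TGFB 2, wildtype 2 or wildtype 3 for each of the 33 members. These 3 arrays, picked out after the values were seen, held the highest value of 36.8% of all genes. They were the top 3 arrays for 27 of the 33 members, 9 S phase and 18 mitosis members. Wildtype 4 was the lowest array for 22 members, 9 S phase and 13 mitosis members, against 18.7% of all genes. For 15 members every TGFB array lay inside the range of the wildtype arrays, against 24.4% of all genes. The ratio of the highest to the lowest signal over the 8 arrays ran from 1.55 in Mcm4 to 4.10 in Ccnd1, with a median of 2.43.

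**Figure D3:**
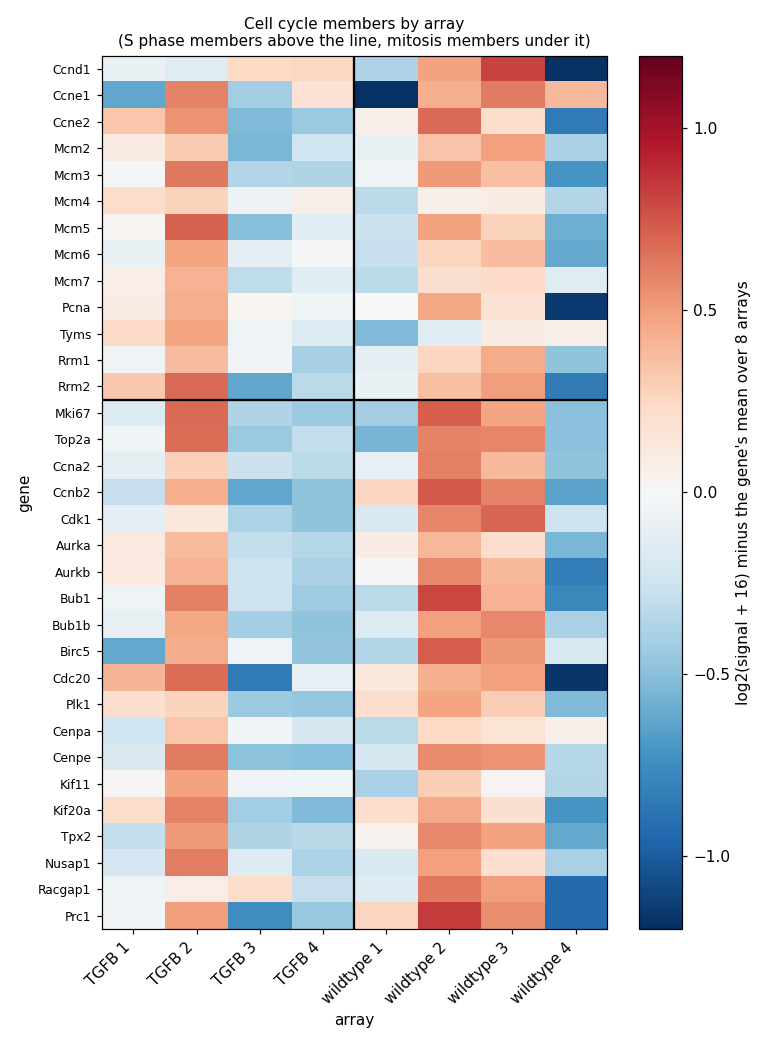
Each of the 33 members on each of the 8 arrays, coloured by log2(signal + 16) minus the member's mean over the 8 arrays. Mostly red columns at TGFB 2, wildtype 2 and wildtype 3 run through both sets of members, while wildtype 4 is mostly darker blue and TGFB 3, TGFB 4 and wildtype 1 mostly paler blue.

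The mean log2 level of the mitosis members was 8.19, 8.72, 7.93 and 7.89 in TGFB 1 to TGFB 4 and 8.15, 8.83, 8.68 and 7.71 in wildtype 1 to wildtype 4. That of the S phase members was 9.32, 9.72, 9.03 and 9.14 against 9.01, 9.62, 9.64 and 8.75. Both lists were thus high in the same 3 arrays and lowest in wildtype 4. Group means were 8.18 ± 0.38 and 8.34 ± 0.51 (SD, n = 4 each) for mitosis members and 9.30 ± 0.30 and 9.25 ± 0.44 for S phase members, so that neither gap came near the spread between arrays. The gap between both list means within an array ran 1.13, 1.00, 1.09 and 1.25 from TGFB 1 to TGFB 4 against 0.85, 0.79, 0.96 and 1.04 in wildtype arrays, or 1.12 ± 0.10 against 0.91 ± 0.11. It was wider in 3 of 4 TGFB arrays than in any wildtype array, with TGFB 2 below wildtype 4. This gap was chosen after its values were seen and has no test. In the further genes of both processes it was 0.33 ± 0.07 against 0.27 ± 0.07, from 0.26 to 0.41 and from 0.22 to 0.36, so the groups lay closer there.

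**Figure D4:**
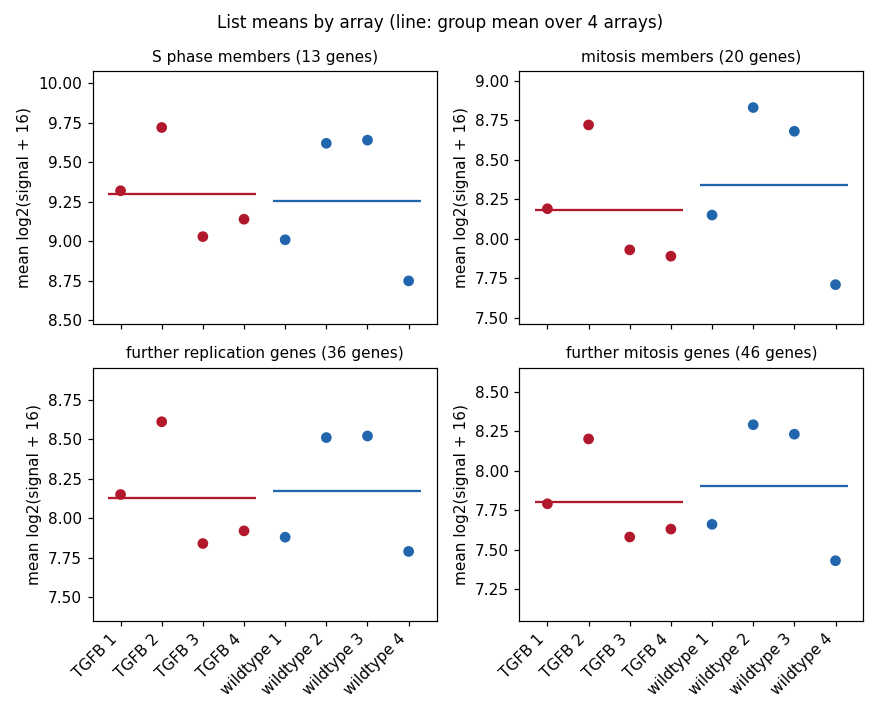
Mean log2(signal + 16) of 13 S phase members, 20 mitosis members, 36 further replication genes and 46 further mitosis genes on each array, TGFB in red and wildtype in blue, with a line at the mean of each group. In every panel TGFB 2, wildtype 2 and wildtype 3 stand highest and wildtype 4 lowest.

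Other cell type markers and a measure of RNA quality also differed between arrays, and their part in the levels of the members was not tested. No single marker list had TGFB 2, wildtype 2 and wildtype 3 as its 3 highest arrays, and combinations of lists were not examined. Wildtype 4 was at an end of the range for basal markers, stromal markers and the Gapdh ratio. Cornified epidermis markers (7 of 7 measured) had a mean log2 level of 12.22, 12.59 and 11.45 in TGFB 1, TGFB 2 and wildtype 2 and of 6.24 to 7.20 in the other 5 arrays. Wildtype 3, where the members were high, had 7.20, and TGFB 1 was among the top 3 arrays for 3 members. Basal epithelial markers (5 of 5) ran from 9.57 to 10.37 in TGFB and from 8.84 to 10.09 in wildtype arrays, with TGFB 1, TGFB 2 and wildtype 2 highest and wildtype 4 lowest. Stromal markers (5 of 5) ran from 10.46 to 11.22 and from 10.84 to 11.80, with wildtype 4 highest. Corneal epithelial markers (6 of 6) ran from 9.38, in TGFB 1, to 10.81 and from 9.82, in wildtype 4, to 11.82. Krt12, the keratin that defines this epithelium, gave signals of 289 in TGFB 1, 562 in wildtype 4 and 3008 to 5766 in the other arrays. Lens markers (5 of 5) ran from 4.58 to 9.92 and from 4.97 to 10.63 (4.79 and 4.97 in TGFB 2 and wildtype 2 but 10.63 in wildtype 3), pigment cell markers (5 of 5) from 8.61 to 10.74 and from 10.64 to 12.41, skeletal muscle markers (5 of 5) from 10.10 to 10.94 and from 10.32 to 11.39, and macrophage markers (5 of 5) from 7.80 to 8.28 and from 7.73 to 8.75. Of the T and B cell markers, 4 of 5 were measured, with means of 4.86 to 5.39 and 4.72 to 5.08, with Cd3e and Cd79a at signals of 12.8 or less on every array, Cd3g at up to 27.1, in TGFB 2, and Ptprc, which all white blood cells carry, at 55.6 to 165. Gapdh probes of the 3′ end over those of the 5′ end, a ratio that rises as RNA degrades, gave 6.41 in wildtype 4 and from 2.19 to 4.31 in the others. Without the 3 arrays with cornified transcripts (TGFB 1, TGFB 2 and wildtype 2), the S phase median was -0.14 and the mitosis median -0.26, and 0 members passed at either threshold. Of the members, 3 (Cdk1, Bub1b and Cenpe) had groups that did not overlap there, 2 TGFB against 3 wildtype arrays, as had 21.8% of all genes.

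The cyclins that open the cycle differed between arrays more than between groups. Ccnd1, cyclin D1, which growth factor signals induce in G1, gave signals of 763, 725, 953 and 957 in TGFB against 619, 1132, 1421 and 346 in wildtype arrays. The TGFB arrays all lay within the wildtype range, whose ends were wildtype 3 and wildtype 4, and the difference was 0.13 (SE 0.39, limma adjusted p = 0.967). Both other Ccnd1 probe sets gave -0.11 (SE 0.46) and -0.014 (SE 0.36). Ccne1, cyclin E1, the partner of Cdk2 at the start of replication, stood at 582, 1375, 671 and 1023 against 389, 1227, 1396 and 1187. It was the one cyclin that was not low in wildtype 4, and its difference was -0.13 (SE 0.42, limma adjusted p = 0.970). A second, dimmer Ccne1 probe set was lowest in wildtype 4, at 117, 150, 86.9 and 98.6 against 86.7, 137, 124 and 74.8, so the 2 probe sets disagree on this array. The probe set used carries the suffix x_at, by which the manufacturer marks probes that can match other transcripts. The probe sets used for Mcm4, Mcm5, Mcm6, Rrm2, Cdc20 and Aurkb carry the same suffix. Ccne2, the other E type cyclin, ranged from 66.3 to 156 in TGFB and from 49.8 to 174 in wildtype arrays, with a difference of -0.055 (SE 0.36).

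The helicase that unwinds DNA ahead of the fork is built of Mcm2 to Mcm7, and its subunits went no common way. Mcm4 had the smallest p among S phase members, with signals of 1203, 1254, 993 and 1087 in TGFB against 830, 1082, 1103 and 807 in wildtype arrays. Wildtype 2 and wildtype 3 lay within the TGFB range and the others below it, for a difference of 0.25 (SE 0.16, limma adjusted p = 0.795). A second Mcm4 probe set gave 0.11 (SE 0.28). Mcm2 had the lowest difference of the S phase members, -0.18 (SE 0.25, limma adjusted p = 0.913), from signals of 534, 620, 334 and 416 against 466, 632, 702 and 374. The groups overlapped over most of their range here. The differences of Mcm3, Mcm5, Mcm6 and Mcm7 were -0.056 (SE 0.31), 0.041 (SE 0.31), 0.13 (SE 0.25) and 0.03 (SE 0.20). For Mcm7 the other 3 probe sets gave -0.074, -0.068 and -0.023, and for Mcm6 the brighter of the others gave -0.092, so the sign of these subunits is not settled.

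Pcna, the sliding clamp that holds DNA polymerase on its template, gave 1573, 1979, 1486 and 1413 in TGFB against 1472, 2027, 1648 and 651 in wildtype arrays. Wildtype 4 stood well below the other 7 arrays, which overlapped, and the difference was 0.25 (SE 0.32, limma adjusted p = 0.902). The subunits of ribonucleotide reductase, which makes the building blocks of DNA, were Rrm1 with a difference of -0.05 (SE 0.24) and Rrm2 with 0.026 (SE 0.36). Rrm2 signals were 1197, 1535, 614 and 759 against 904, 1230, 1357 and 527, an overlapping pattern. Tyms, thymidylate synthase, was dim at 37.5, 47.6, 28.2 and 24.7 against 15.7, 25.8, 32.7 and 32. Its difference was 0.25 (SE 0.20, limma adjusted p = 0.843), and its 3 other probe sets were dimmer still and gave both signs.

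Among mitosis members the engine of mitotic entry had the lowest values. Cdk1, the kinase that drives entry into mitosis, gave signals of 575, 684, 479 and 445 in TGFB against 551, 948, 1030 and 526 in wildtype arrays. Wildtype 2 and wildtype 3 lay above every TGFB array and the other wildtype arrays among them. The difference was -0.43 (SE 0.26, limma adjusted p = 0.783, the smallest among the members). Ccnb2, a B type cyclin that binds Cdk1, had the largest difference of all members, -0.47 (SE 0.33, limma adjusted p = 0.817), from 233, 392, 180 and 200 against 345, 486, 441 and 178. Wildtype 4 was the lowest array and the other 3 wildtype arrays overlapped TGFB 2 alone. Ccna2, cyclin A2, which acts from S phase to early mitosis, ran from 428 to 664 in TGFB and from 382 to 830 in wildtype arrays, with a difference of -0.20 (SE 0.25) and of -0.41 (SE 0.32) in its second probe set.

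The values of Ccnb2, Cdk1 and Prc1 depended on single arrays in both directions. Without wildtype 2 they were nearer to 0, at -0.31, -0.31 and -0.14, and without wildtype 3 Cdk1 was at -0.27. Prc1 was at -0.18 without TGFB 3 and at -0.59 without TGFB 2. Without wildtype 4 all 3 were further below 0. In that setting Ccnb2 stood at -0.77 (limma adjusted p = 0.307), Cdk1 at -0.58 (limma adjusted p = 0.393) and Prc1 at -0.73 (limma adjusted p = 0.370). These 3 were the members with an unadjusted p under 0.05 there, as were 8.16% of all genes on the lower side. With array quality weights the same 3 genes were below that p, as were 7.24% of all genes on the lower side, and with the cornified score as a covariate Ccnb2 and Cdk1 were, against 4.51%. These counts of 3 and 2 among 33 members lie near those shares. No member passed an adjusted p under 0.05 in any of the 18 alternatives, where the smallest adjusted p of any member ran from 0.307 to 0.953.

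Markers of cycling cells as a whole followed the arrays. Mki67, the nuclear antigen Ki-67 present in all phases of division, gave 1077, 1946, 935 and 886 in TGFB against 899, 1999, 1681 and 850 in wildtype arrays. TGFB 2, wildtype 2 and wildtype 3 formed the upper set and the other 5 arrays the lower one, with both groups in each. Its difference was -0.14 (SE 0.35, limma adjusted p = 0.959). Top2a, the topoisomerase that untangles sister chromosomes, split in the same way, at 1073, 1785, 813 and 903 against 751, 1688, 1676 and 783, for a difference of -0.06 (SE 0.35, limma adjusted p = 0.985).

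For the kinases and checkpoint proteins of the spindle the differences were close to their SE or smaller. Aurka and Aurkb, the Aurora kinases of the centrosome and of the chromosomal passenger complex, had differences of -0.072 (SE 0.24) and -0.056 (SE 0.32), and Plk1, the polo kinase, -0.22 (SE 0.27). Birc5, survivin, another passenger protein, gave 208, 452, 315 and 231 against 254, 552, 477 and 286, a difference of -0.35 (SE 0.31, limma adjusted p = 0.853) with overlapping groups. The checkpoint kinases Bub1 and Bub1b, which watch over chromosome attachment, had -0.064 (SE 0.36) and -0.26 (SE 0.29). Cdc20, which turns on the complex that destroys cyclin B, gave 1397, 1680, 574 and 982 against 1144, 1417, 1480 and 458. It was one of the 2 mitosis members above 0, at 0.065 (SE 0.43, limma adjusted p = 0.986), and the groups overlapped.

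Kinetochore and motor proteins showed the same spread. Kif11, the motor that pushes the spindle poles apart, was the other mitosis member above 0, with 112, 162, 108 and 107 in TGFB against 81.0, 140, 114 and 83.7 in wildtype arrays. TGFB 2 was the highest array and the other TGFB arrays lay inside the wildtype range, for a difference of 0.20 (SE 0.20, limma adjusted p = 0.869). The other Kif11 probe sets gave -0.057 (SE 0.26) and, at dim signals, 0.17 (SE 0.15). Cenpa, the histone that marks centromeres, had -0.071 (SE 0.18), Cenpe, a motor of the kinetochore, -0.28 (SE 0.31), and Kif20a, a motor of the midzone, -0.077 (SE 0.32). A second, dimmer Cenpe probe set gave 0.23 (SE 0.27). Cenpa was among the members that were not low in wildtype 4, at 489 against 371 to 557 in the other wildtype arrays.

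Of the proteins that bundle microtubules and divide the cell, Prc1, which crosslinks the central spindle, had the lowest value. Its signals were 372, 546, 221 and 273 in TGFB against 458, 694, 568 and 192 in wildtype arrays. Wildtype 4 was below every TGFB array, wildtype 2 and wildtype 3 were above every one, and wildtype 1 was above 3 of them, and the difference was -0.36 (SE 0.40, limma adjusted p = 0.880). A second Prc1 probe set gave -0.30 (SE 0.31). Tpx2, which activates Aurora A on the spindle, had -0.24 (SE 0.30), Nusap1, a spindle microtubule binder, -0.06 (SE 0.27), and Racgap1, a regulator of the cleavage furrow, -0.021 (SE 0.32). The 3 other Tpx2 probe sets ran from -0.54 (SE 0.20), in the dimmest, to 0.0092 (SE 0.23).

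Other probe sets of the members gave no firmer direction. Of 25 further probe sets with a mean log2 level of at least 6, 12 had the sign of the one used. With the mean of all probe sets per gene, 15 of 20 mitosis members and 6 of 13 S phase members lay below 0, with medians of -0.072 and 0.0028.

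Genes of the same pathway outside the list came from 3 lists of related genes. Those of replication and mitosis followed the same arrays, and those of G1 control did so in part. The highest array was TGFB 2, wildtype 2 or wildtype 3 for 33 of 36 further replication genes and 45 of 46 further mitosis genes. The same held for 13 of 19 genes of G1 control and for 36.8% of all genes. Of the G1 control genes, 9 were highest in TGFB 2, 3 in TGFB 1, and 2 each in wildtype 1, wildtype 2 and wildtype 3. None of these 101 genes passed an adjusted p under 0.05 in limma, and at an unadjusted p under 0.05 there were 2, 1 and 1 of them, where 7.08% of all genes had such a p. The further mitosis genes had 39 of 46 members below 0 and a median of -0.078, the further replication genes 24 of 36 and -0.059, and the G1 control genes 8 of 19 and 0.071.

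By p, the first of the further replication genes were Rpa1, the single strand binding protein, at -0.54 (SE 0.19), E2f2, an activating E2F factor, at 0.70 (SE 0.30), Rfc2, a clamp loader subunit, at -0.28 (SE 0.17), and Orc6, of the origin complex, at 0.15 (SE 0.14). The first further mitosis genes were the kinetochore genes Spc25 at -0.53 (SE 0.23) and Nuf2 at -0.30 (SE 0.22), the kinase Pbk at -0.42 (SE 0.23), and Foxm1, a factor that switches on mitotic genes, at -0.24 (SE 0.17). The first G1 control genes were Lin9, a subunit of the complexes that bind the CHR, at 0.52 (SE 0.22), Myc, a growth regulator that TGF-beta represses in many epithelia, at 0.55 (SE 0.26), Tfdp1, the partner of E2F factors, at 0.35 (SE 0.23), and E2f5 at -0.74 (SE 0.49). Adjusted over all genes, the limma p of the 12 ran from 0.668 to 0.857. Myc signals were 196, 270, 125 and 133 in TGFB against 125, 151, 98.8 and 86.8 in wildtype arrays, and TGFB 3 and TGFB 4 overlapped the wildtype arrays.

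Across processing settings the median of the S phase members stayed above that of the mitosis members, in 19 of 19 settings including the reported one, while both moved together. With array weights they were -0.26 and -0.44, and with the cornified score as a covariate -0.17 and -0.34. Quantile normalization gave 0.038 and -0.11, and centring each array on its median 0.00048 and -0.14, with a median over all genes of -0.043. The settings share arrays and are not independent of each other.

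**Figure D5:**
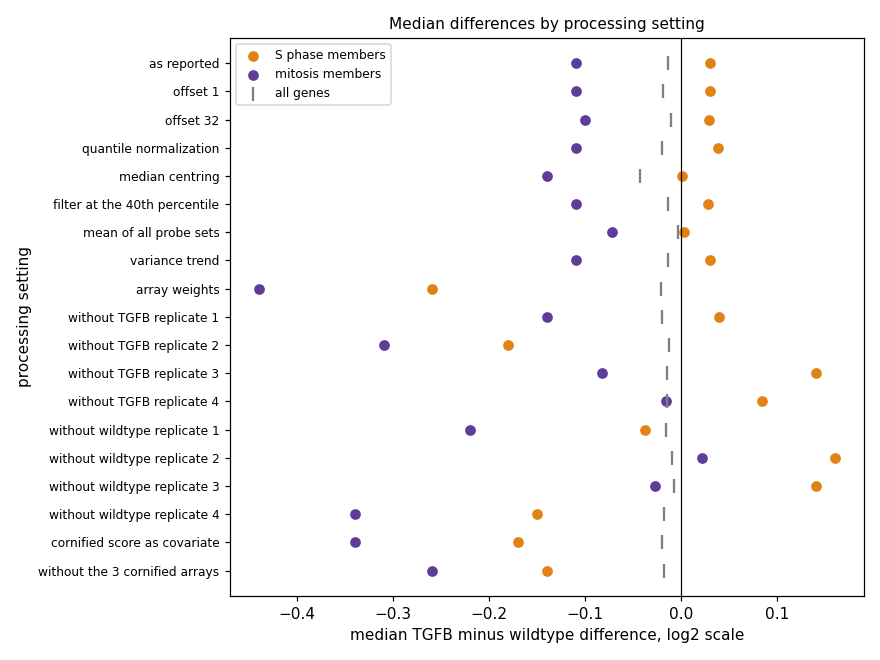
Median TGFB minus wildtype difference of S phase members (orange), mitosis members (purple) and all genes (grey bar) under the reported and 18 other processing settings, on the log2 scale. The S phase median lies right of the mitosis median in each setting, and leaving out 1 array carries both across a range wider than the distance of either from 0.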

How the data were processed

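The values deposited by the authors are linear probe set intensities of 8 one-colour Affymetrix arrays; how they were scaled was not given in the sources used. The 2% trimmed mean was 150 on every array, so no further normalization was applied. The number of arrays limits the precision. The 64 control probe sets were left out, and 932 probe sets with several symbols were not used. Symbols came from GEO's platform annotation, updated through Entrez IDs with a RefSeq table of GRCm38.p6 (34741 of 34945 probe sets matched). Values were taken as log2(signal + 16) and tested in R 4.3.3 by limma 3.58.1 (lmFit, then eBayes with no trend; 9.03 degrees of freedom in total). P-values were adjusted by Benjamini-Hochberg over 18193 genes. The step was tested on simulated data, with independent genes and changes far larger than those of the members. That test does not gauge the power for differences of their size. Array numbers follow the order of the records and pair no arrays.

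The members, lists and alternatives were chosen with earlier results of these data known. All 33 members are named whatever their values, with the 4 genes of smallest p in each of 3 further lists; Krt12 and the T and B cell markers were named after their values were seen. Each of these was tried in turn: an offset of 1 or of 32, quantile normalization, centring on the median, dropping genes under the 40th percentile, averaging a gene's probe sets, a variance trend, array weights, a cornified score (mean of 7 genes) as covariate, leaving out 3 arrays with cornified transcripts, the S phase members without Ccnd1, and leaving out each array in turn.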

Additional observations from a re-analysis of the deposited data

Results flagged for a closer look

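A sample stood far from the other 3 of its group, by a gap over range above Dixon's critical value, in 4 of 70 groups of 4 arrays tested; chance gives about 1 in 20. Ccne1 was low in wildtype 1, at a log2 value of 8.66 against 10.23 to 10.46 in the other wildtype arrays (gap over range 0.872). TGFB 2 was high in its group for the other 3 genes. Mcm6 stood at 10.05 against 9.47 to 9.56 (0.849), Kif11 at 7.47 against 6.94 to 7.00 (0.891) and Tpx2 at 8.46 against 7.59 to 7.67 (0.914).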

How the results depend on the processing

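No member passed the threshold in any setting, and the count of genes past it ran from 0 to 2 over single arrays left out, with 2 without wildtype 4. The count of members above 0, reported as 10 of 33, ran from 3 to 21 over single arrays left out. It was 3 with array weights and 6 with the cornified score as a covariate. Without the 3 cornified arrays, 3 members had groups that did not overlap, as had 21.8% of all genes. The cause of these shifts was not tested. Between 0 and 11 members changed sign per alternative, and 19 of 33 did so in at least 1 of them. No member's difference moved by its spread between arrays (1 SD) or more in 593 comparisons with an alternative. Leaving out 1 of the 4 arrays of a group cannot move a difference that far, and a variance trend leaves it unchanged. The absence of such moves is therefore no measure of stability. Without Ccnd1 the S phase median was 0.028. The filter at the 40th percentile removed Tyms, which left 12 S phase members. Dim members such as Tyms are limited by a signal near the offset.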

Other observations

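Among the 101 further cell cycle genes, Rpa1 alone had groups that did not overlap, where 3.94% of all genes had such groups. Rpa1 stood at 1477, 1707, 1513 and 1878 in TGFB against 2829, 2006, 2990 and 1916 in wildtype arrays (log2 difference of -0.54, SE 0.19, limma adjusted p = 0.668). The G1 control gene E2f5, an E2F factor that acts mainly as a repressor, had its highest signal, 4593, in wildtype 4, the array where most members were lowest, followed by 2046 in wildtype 2 and 1805 in wildtype 3, where the members were high, and ran from 668 to 1696 on the other arrays. Both were singled out after their values were seen.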
